A study of Mus musculus with 4 samples.

Results

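The genes described are 9 that encode junction proteins of the blood-testis barrier: the claudins Cldn3, Cldn5 and Cldn11, the MARVEL-domain proteins Ocln (occludin), Marveld2 (tricellulin) and Marveld3, the cytoplasmic proteins Tjp1 (ZO-1) and Cgn (cingulin), and the connexin Gja1 (connexin 43). They were chosen by symbol, and 9 of 9 were present in a count table of 25265 genes. All 9 also passed the filter on low counts that left 21132 genes for testing. The study sequenced ribosomal RNA-depleted RNA from whole testis of C57BL/6 mice at postnatal day 56, with 2 libraries from control animals and 2 from animals of the genotype Ythdf2-vKO, which the series title describes as a mutation of Ythdf2 in germ cells. YTHDF2 is a cytoplasmic reader of N6-methyladenosine (m6A) in RNA, and the comparison asks how the testis transcriptome differs with its loss. The transgene that drives the deletion, the alleles carried by the controls, and whether each library came from its own animal are not given in the labels.

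The blood-testis barrier is formed by adjacent Sertoli cells, the somatic nurse cells of the seminiferous tubule, and it separates spermatogonia from meiotic and later germ cells. It combines tight junctions, a basal actin-rich adherens junction called the ectoplasmic specialization, desmosomes and gap junctions, and it opens and re-forms as spermatocytes cross it. Claudins build the sealing strands, occludin and its relatives lie within or between those strands, ZO-1 and cingulin tie the strands to actin, and connexin 43 forms the main gap junction channels of Sertoli cells. Cldn11 is known as the claudin without which mouse testes form no tight junction strands and males are sterile. Cldn5 is best known from endothelium.

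Total gene counts ran from 24862518 to 29561182 per library. The level of Ythdf2 did not follow the labels: the control libraries held 1193 and 1604 counts and those labelled Ythdf2-vKO held 1774 and 1807. The difference on the log2 scale was 0.35 ± 0.13 (SE; adjusted p 0.238, edgeR quasi-likelihood fit). Every direction below is therefore that of the libraries labelled Ythdf2-vKO, called vKO libraries from here on, against those labelled control. A gene total cannot tell whether a deleted segment was read. The libraries also differed in how their counts related to transcript GC content, with Spearman correlations across genes from -0.435 in control replicate 2 to 0.275 in vKO replicate 1. A fit with a GC offset is quoted beside several values below. In RNA from a whole organ, fewer cells of a type and less RNA per cell cannot be told apart.

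Among the 9 genes, the barrier claudins Cldn11 and Cldn3 are shown by sequence because their fitted log2 fold changes had opposite signs. Neither difference reached an adjusted p under 0.05 in the edgeR fit, and the groups of Cldn3 overlapped. The stretches are the 250 bases before the RefSeq start site in GRCm38.p6, 5′ to 3′ on the plus strand, at chr3:31149670-31149919 for Cldn11 and chr5:134985964-134986213 for Cldn3. Capitals mark matches on either strand to any of 5 motifs. These were the TATA box, read as TATAAA; the GC box of SP factors, read as GGGCGG; the CCAAT box of NF-Y; the core bound by SOX factors, read as ACAAT; and the site of GATA factors, read as AGATAA.
Cldn11: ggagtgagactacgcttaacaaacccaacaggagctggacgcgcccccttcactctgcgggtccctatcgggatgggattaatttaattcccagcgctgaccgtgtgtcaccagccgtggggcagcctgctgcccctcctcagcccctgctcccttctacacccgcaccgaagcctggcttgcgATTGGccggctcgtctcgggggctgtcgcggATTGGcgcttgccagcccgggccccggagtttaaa
Cldn3: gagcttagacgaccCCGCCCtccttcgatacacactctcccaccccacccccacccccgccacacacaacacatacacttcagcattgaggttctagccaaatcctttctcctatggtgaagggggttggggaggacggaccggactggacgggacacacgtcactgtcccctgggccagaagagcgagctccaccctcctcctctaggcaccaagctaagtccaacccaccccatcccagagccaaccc
The Cldn11 stretch held 2 CCAAT boxes, both read as ATTGG, whose first letters lie 66 and 35 bases before the start, and none of the other 4 motifs. Cldn5 and Cgn also held 2 CCAAT boxes each and 1 Ocln window held 1, while Tjp1, Marveld2 and Gja1 held none. The Cldn3 stretch held 1 GC box, 236 bases before the start, and no CCAAT box. GC boxes were also found for Cldn5, Ocln, Tjp1, Marveld2 and Cgn, but not for Gja1. Of 32851 RefSeq windows of the same length, 33.8% held a CCAAT box, 32.7% a GC box, 27.7% the SOX core, 12.4% the TATA box and 9.99% the GATA site. Over the 8 of 9 genes with an entry, the SOX core was in no window, and the GATA letters only in that of Gja1. The Cldn11 stretch had 19 CG dinucleotides, against a median of 6 over all windows, and a GC content of 63.6% against 52.4%. Among the other genes with an entry, CG dinucleotides ran from 6 in Gja1 to 22 in Tjp1 and 1 Ocln window, with 19 in Cgn. Their GC content ran from 50% in Gja1 to 70.4% in Cgn. Such matches describe letters and not binding.

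Levels of different genes were compared as CPM, counts scaled to a common library size, per kilobase of the longest annotated transcript, and they spanned about 2 orders of magnitude. Cldn11 stood first with 43.2 ± 8.79 CPM per kb (SD, n = 4 libraries of both groups), above 89.4% of all genes tested. Cgn (12.2 ± 1.54), Tjp1 (11.1 ± 1.17) and Gja1 (10.9 ± 0.479 CPM per kb) followed, and their ranges over the 4 libraries overlapped one another. Cldn3 had 3.99 ± 1.32 CPM per kb, close to the median of all genes tested, 3.90 CPM per kb. The lowest levels per length were those of Cldn5 (1.41 ± 0.279), Ocln (1.23 ± 0.32), Marveld3 (0.921 ± 0.121) and Marveld2 (0.434 ± 0.101 CPM per kb). Each of the 4 libraries placed Cldn11 above Cgn, Gja1 above Cldn3, Cldn3 above Cldn5 and Marveld3 above Marveld2 without overlap of their ranges, whereas the neighbours Cldn5, Ocln and Marveld3 were not separated in this order. The position of Gja1 depended on the length used: over its total exon length of 10257 nt in place of a 3889 nt transcript it came to 4.12 CPM per kb, next to Cldn3.

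**Figure D1:**
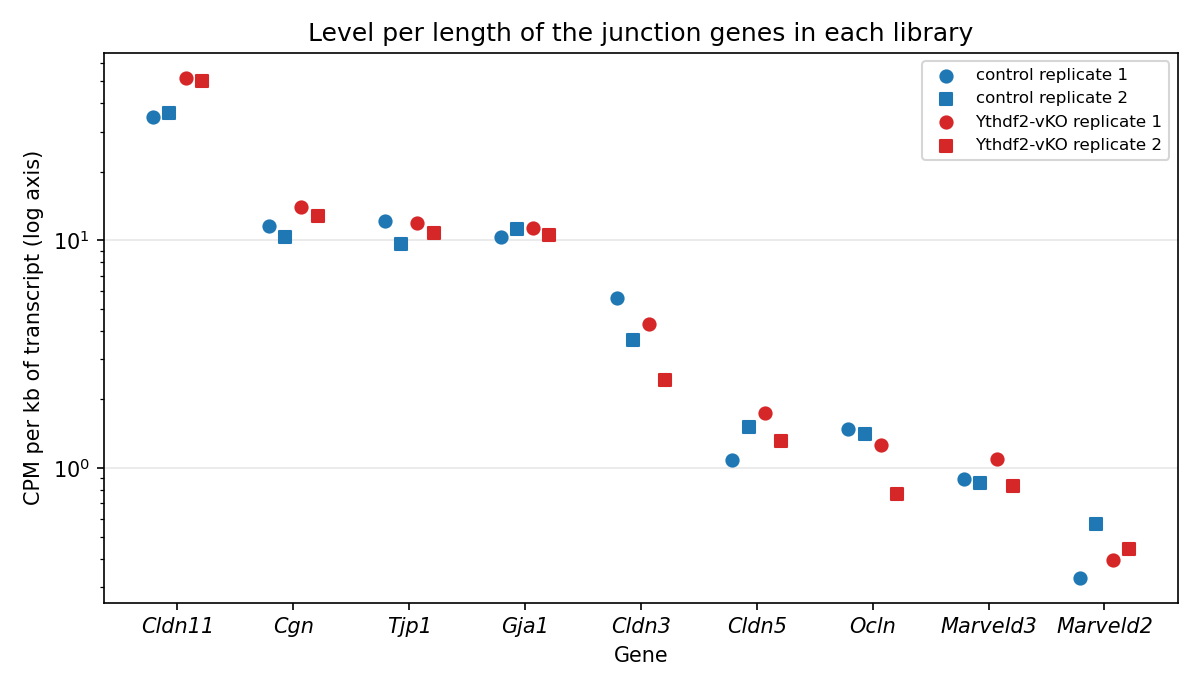
Level of each of the 9 junction genes as CPM per kb of transcript (log axis), with 1 point per library, control in blue and Ythdf2-vKO in red. Cldn11 lies highest, at 34.9 to 51.7 CPM per kb, and Marveld2 lowest, at 0.33 to 0.568.

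Between genotypes, the edgeR quasi-likelihood F test (called: Benjamini-Hochberg adjusted p below 0.05 over 21132 genes) called 0 of the 9 junction genes and 0.393% of all genes tested, 0.279% as higher and 0.114% as lower. At an unadjusted p under 0.05 there was 1 of 9, Cldn11, against 14.1% of all genes. In the authors' deposited table, 1 of the 8 junction genes with an adjusted p, again Cldn11, was below 0.05, against 1.32% of all genes with a value there (0.833% higher). The groups did not overlap in 3 of the 9 genes (Cldn11 and Cgn higher, Ocln lower in the vKO libraries), against 45.3% of all genes (22.7% higher and 22.6% lower), so that separation of 2 libraries from 2 says little on its own. The median log2 fold change of the 9 was 0.05, with 6 positive and 3 negative values, against 0.0027 for all genes tested. The common biological coefficient of variation in this fit was 13.5%.

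Cldn11 (chromosome 3, 31149920 to 31164324 in GRCm38, plus strand) showed the largest positive value among the 9. The control libraries held 1525 and 2043 counts and the vKO libraries 2587 and 2519, or 65.2 and 68.1 against 96.6 and 93.4 CPM. Both vKO libraries lay well above both control libraries, and replicates of a group lay close together (66.7 ± 2.05 against 95 ± 2.31 CPM, SD, n = 2 each). The fitted log2 fold change was 0.51 (SE 0.12, 95% interval 0.24 to 0.78), a 1.42-fold difference, with an unadjusted p of 0.00117 and an adjusted p of 0.105 by edgeR. It was not called there, but it was in the authors' deposited table, with a log2 fold change of 0.51 (SE 0.15) and an adjusted p of 0.0404. Over the 13 alternative fits the log2 fold change stayed between 0.47 and 0.57 while the adjusted p ran from 0.00472 to 0.652, and 6 of the 13 called the gene. Those 6 were library totals alone (which called 1.03% of all genes), the DESeq2 Wald test (1.32%, the same result as the authors' deposited table and not a further one), the replicate block (4.81%), the GC offset with the block (3.48%), and the fits without control replicate 1 (6.82%) or without control replicate 2 (4.93%). The fits that did not call it were DESeq2 size factors (0.336% of all genes called), no low-count filter (0.483%), at least 10 counts in every library (0.534%), no robust estimation (0.308%), the GC offset (0.752%), and those without vKO replicate 1 (0.16%) or vKO replicate 2 (0.446%). The adjusted p was 0.0147 without control replicate 1, 0.00539 without control replicate 2, 0.652 without vKO replicate 1 and 0.315 without vKO replicate 2, each by edgeR with the remaining single library taken to vary like the other group.

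Cldn3 (chromosome 5, 134986214 to 134987472), an androgen-responsive claudin of newly forming barrier junctions, was read 165 and 138 times in the control libraries, against 144 and 83 times in vKO. The CPM were 7.06 and 4.6 against 5.38 and 3.08, so the groups overlapped and replicates differed by more than the groups did. The log2 fold change was -0.46 (SE 0.30, 95% interval -1.12 to 0.20, adjusted p 0.549 by edgeR). It was -0.70 with the GC offset (adjusted p 0.254), Cldn3 being the most GC-rich of the 9 transcripts at 62.7%. It was -0.13 without control replicate 1 and -0.11 without vKO replicate 2, but -0.74 without control replicate 2 and -0.91 without vKO replicate 1. An antisense gene, Wbscr25, shares 40 of the 1259 exonic bases of Cldn3 on the other strand. Wbscr25 stood at 429 and 397 CPM (control) against 342 and 358 CPM (vKO). The library kit keeps strand, but the strand setting of the counting is not given in the sources used here, so reads of the shared stretch cannot be assigned.

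Cldn5 (chromosome 16, 18776847 to 18778262), a claudin of endothelial and Sertoli cell junctions, gave counts of 36 and 64 for control, against 66 and 50 for vKO. The CPM were 1.54 and 2.13 against 2.47 and 1.85, with overlapping groups. The log2 fold change was 0.22 (SE 0.34, 95% interval -0.51 to 0.96, adjusted p 0.829 by edgeR), which allows anything from a 0.702-fold to a 1.94-fold level. It was -0.014 with the GC offset, 0.0054 without vKO replicate 1, 0.0088 without control replicate 1 and 0.49 without control replicate 2. Of 10 tested endothelial markers, 0 were called, 6 values were positive and 4 negative, and the summed level was 46.6 and 36.7 CPM (control) against 56.9 and 49.6 CPM (vKO). Its most abundant markers Vwf and Flt1 had log2 fold changes of 0.43 and 0.70 (adjusted p 0.523 and 0.158 by edgeR), that of Vwf being 0.055 without control replicate 2 and 0.92 without control replicate 1. The following were named after their values were seen, with adjusted p by edgeR. Cdh5 (0.83, adjusted p 0.186) and Tek (0.73, adjusted p 0.394) were positive too. Ptprb (-0.82, adjusted p 0.224) and Egfl7 (-0.43, adjusted p 0.549) lay on the other side. The part of endothelial RNA in the Cldn5 values was not tested.

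Occludin and its relatives were, with Cldn5, the genes of lowest level per length. Ocln (chromosome 13, 100496507 to 100552718, minus strand), a strand protein of the tight junction, was covered by 140 and 171 reads in the control libraries, against 137 and 84 in vKO. The CPM were 5.99 and 5.70 against 5.12 and 3.11, so that both vKO libraries were lower, replicate 2 by the larger amount. The log2 fold change was -0.51 (SE 0.26, 95% interval -1.07 to 0.06, adjusted p 0.419 by edgeR), and the gene was not called. It was -0.19 without vKO replicate 2 and -0.91 without vKO replicate 1.

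Marveld2, which encodes the protein of junctions where 3 cells meet, lies on chromosome 13 (100595957 to 100616971), on the strand of Ocln and 43238 bases from it. Its counts were 24 and 53 (control) against 33 and 37 (vKO), the control libraries enclosing the others. The log2 fold change was -0.12 (SE 0.40, 95% interval -0.99 to 0.76, adjusted p 0.939 by edgeR). Marveld3 (chromosome 8, 109947914 to 109962203) had counts of 51 and 63 (control) against 72 and 55 (vKO). These correspond to 2.18 and 2.1 against 2.69 and 2.04 CPM, and the groups overlapped. Its log2 fold change was 0.14 (SE 0.31, 95% interval -0.53 to 0.82, adjusted p 0.892 by edgeR). The intervals reached from a 0.503-fold to a 1.69-fold level for Marveld2 and from 0.692-fold to 1.76-fold for Marveld3.

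The cytoplasmic plaque genes were measured more precisely. Cgn (chromosome 3, 94760069 to 94786492, minus strand), whose protein binds ZO-1 and actomyosin, had 1361 and 1563 counts (control) against 1880 and 1724 (vKO). The CPM were 58.2 and 52.1 against 70.2 and 63.9, both vKO libraries lying above both controls. The log2 fold change was 0.28 (SE 0.13, 95% interval -0.0029 to 0.57, unadjusted p 0.052, adjusted p 0.36 by edgeR), and Cgn was not called. It was 0.18 with the GC offset.

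Tjp1 (chromosome 7, 65296165 to 65527781, minus strand), the scaffold ZO-1, had 2014 and 2042 counts (control) against 2244 and 2043 (vKO). The CPM were 86.2 and 68.1 against 83.8 and 75.7, with the vKO libraries inside the range of the controls. The log2 fold change was 0.05 (SE 0.14, 95% interval -0.26 to 0.36, adjusted p 0.923 by edgeR). Tjp1 also serves endothelial and other epithelial junctions, so its count is not specific to Sertoli cells.

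Gja1 (chromosome 10, 56377330 to 56402513), the gap junction gene, had 942 and 1309 counts (control) against 1177 and 1105 (vKO). The CPM were 40.3 and 43.7 against 44.0 and 41.0, almost fully overlapping. Its log2 fold change was 0.02 (SE 0.13, 95% interval -0.27 to 0.30, adjusted p 0.975 by edgeR). The interval corresponds to a level from 0.828-fold to 1.23-fold, and it does not show that the groups were equal.

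**Figure D2:**
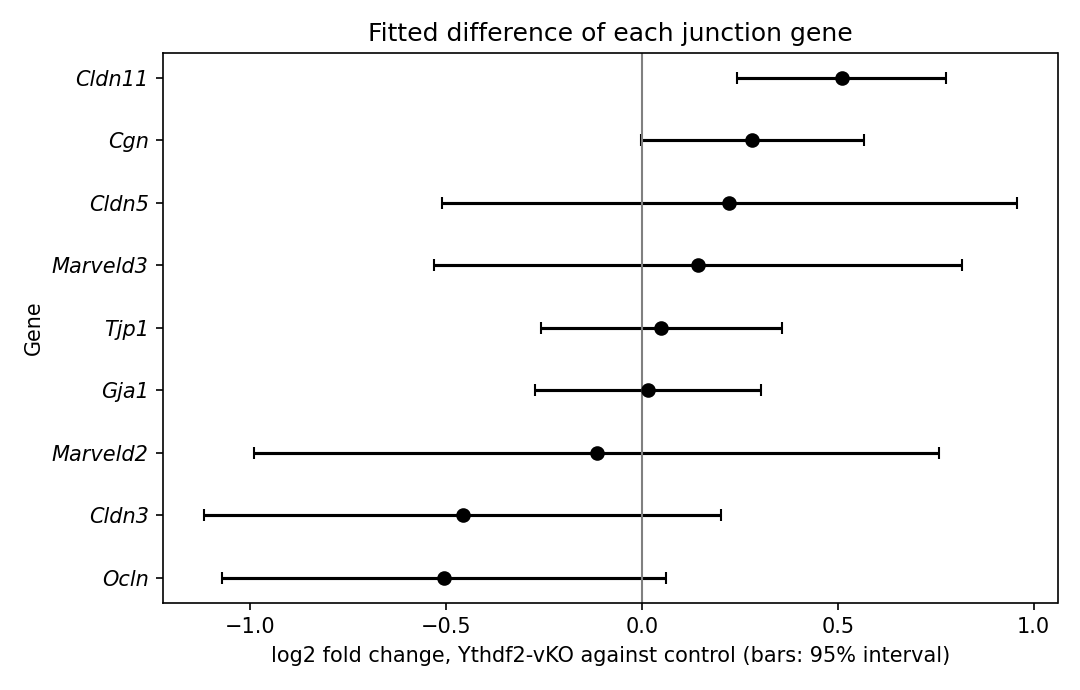
Fitted log2 fold change of each junction gene in the Ythdf2-vKO against the control libraries (points) with its 95% interval (bars). The interval of Cldn11, 0.24 to 0.78, is the one that does not include 0, and the widest are those of the low-count genes Marveld2, Cldn5, Marveld3 and Cldn3.

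Beside the junction genes, markers of Sertoli cells were read in the same fit. Of 18 tested Sertoli markers, 18 had a positive log2 fold change (median 0.30, against 0.0027 for all genes tested), and 1, Wt1, was called. The groups did not overlap in 12 of the 18, all higher, against 22.7% of all genes in that direction, and none of the markers was at 0. Their summed level was 1302 and 1407 CPM (control) against 1809 and 1635 CPM (vKO), most of it from Clu and Amhr2. Clu, which encodes the secreted chaperone clusterin, had 687 ± 40.1 against 868 ± 94.0 CPM (log2 fold change 0.34, adjusted p 0.243 by edgeR; 0.21 with the GC offset). Amhr2, the receptor of anti-Müllerian hormone, had 165 ± 13.1 against 245 ± 21.3 CPM (0.58, adjusted p 0.0734 by edgeR, and 0.39 with the GC offset). Like Cldn11, Amhr2 was called in 6 of 13 alternative fits. Its value over those 13 fits ran from 0.39 to 0.66, against 0.47 to 0.57 for Cldn11.

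To place the junction genes beside these markers, each gene's log2 CPM was set against the mean log2 CPM of the 18 markers in the same library. That mean was 0.37 higher in the vKO libraries, so a gene of unchanged CPM falls by that amount on this scale by construction. Relative to it, Cldn11 was at 1.62 and 1.56 (control) against 1.68 and 1.77 (vKO), a difference of 0.14. Gja1 was at 0.92 and 0.92 (control) against 0.55 and 0.58 (vKO), a difference of -0.36. Tjp1 stood at 2.02 and 1.56 against 1.48 and 1.47, and Ocln at -1.83 and -2.02 against -2.56 and -3.14. The differences of the other genes were -0.86 for Cldn3, -0.42 for Marveld2, -0.24 for Marveld3, -0.14 for Cldn5 and -0.09 for Cgn. Relative to the marker mean, Cldn11 was thus the 1 gene of the 9 with a positive group difference. With 2 libraries against 2 an exact permutation test cannot go below p = 0.333, so no test was made. The size depended on how the markers were summarised: against their median the differences of Cldn5 (0.091) and Cgn (0.14) were positive too, and that of Cldn11 was 0.36. Gja1 came to -0.13 and Tjp1 to -0.09 on that scale. Both kinds of ratio used CPM without a GC offset. With that offset the fitted log2 fold changes were 0.21 for Clu, 0.39 for Amhr2, 0.49 for Cldn11, 0.096 for Gja1 and -0.70 for Cldn3. The counts were of whole testis, so reads of a junction gene from any cell type enter these ratios. Whether the share of Sertoli RNA accounts for the Cldn11 values was not tested.

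**Figure D3:**
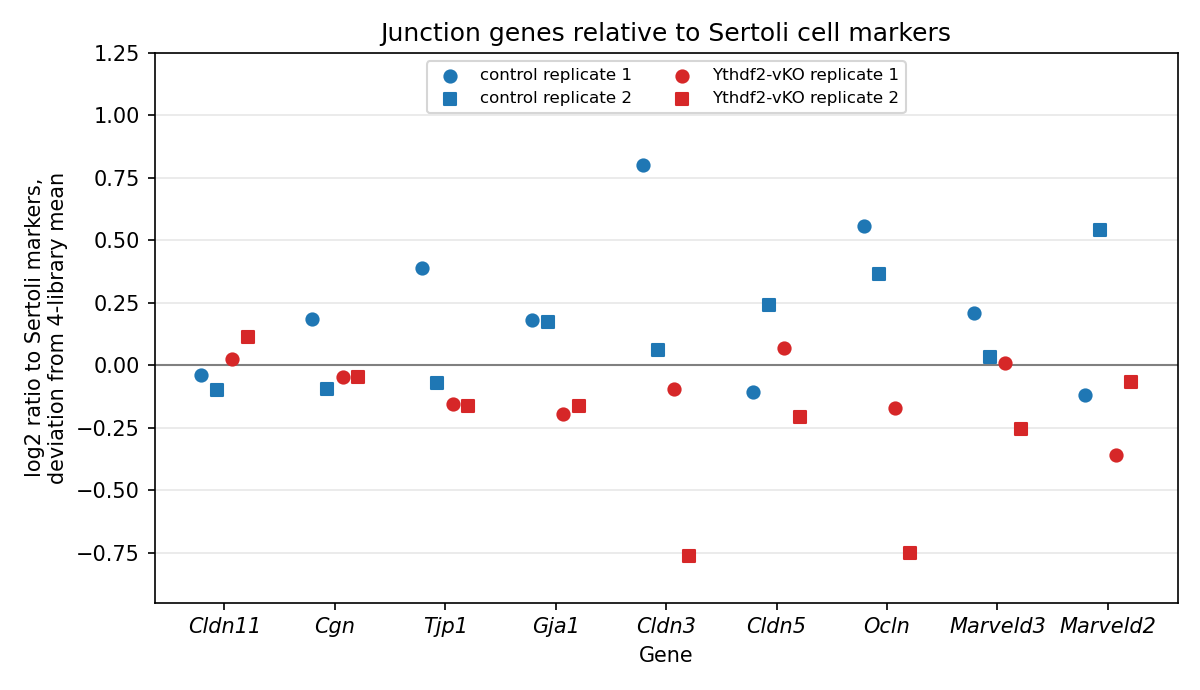
Log2 ratio of each junction gene to the mean of 18 Sertoli cell markers, as the deviation from the mean of the 4 libraries, with control in blue and Ythdf2-vKO in red. Cldn11 shows both red points above both blue points, by 0.14 on average. Gja1, Ocln, Cldn3, Tjp1 and Marveld3 show them below, by 0.36, 0.92, 0.86, 0.32 and 0.24. In plain CPM the groups of Gja1, Cldn3, Tjp1 and Marveld3 overlapped. The share of all genes whose groups separate on this scale was not counted, so these separations say little on their own. The marker mean itself was 0.37 higher in the vKO libraries, so a gene of unchanged CPM falls by that amount.

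Other junction genes and regulators of the barrier were read from 5 lists, again in the edgeR fit. Of 21 other claudins, 11 were in the table, 6 were tested and 0 were called (median log2 fold change 0.44, with 5 values positive). That median was 0.065 when at least 10 counts in every library were required, 0.29 without vKO replicate 1 and 0.59 without vKO replicate 2. Cldn23 had 19 and 19 counts (control) against 44 and 43 (vKO; log2 fold change 1.17, SE 0.42, adjusted p 0.231). Cldn4, an epithelial claudin, had 3 and 10 against 17 and 22 counts (1.58, SE 0.65, adjusted p 0.296), and Cldn14 had a value of 0.83 (adjusted p 0.538). Of 8 rete testis and efferent duct markers, 4 were tested, with 3 positive values and a summed level of 114 and 171 CPM (control) against 268 and 214 CPM (vKO). Most of that sum was Lcn2, at 76.2 and 137 CPM against 236 and 180 CPM, while Muc1 had a log2 fold change of -0.22 and Krt7, which was not tested, had 8 and 20 counts against 4 and 3. These 3 markers were named after their values were seen. The list included 1 called gene, Wnt4, at 0.121 ± 0.111 CPM (control) against 2.08 ± 0.222 CPM (vKO). The part of such cells in the Cldn4 values was not tested.

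Among 31 other tight junction membrane, scaffold and polarity genes, 30 were tested and 0 were called, with 20 values positive, 10 negative and a median of 0.12. Lsr, the lipolysis-stimulated receptor that recruits tricellulin to corners between cells, had 443 and 490 counts (control) against 826 and 673 (vKO). Both vKO libraries were above both controls, by 0.66 ± 0.16 (SE) on the log2 scale, at an edgeR adjusted p of 0.106. Lsr was called in 5 of 13 alternative fits, among them the replicate block (adjusted p 0.00491), which called 4.81% of all genes. With the GC offset the value of Lsr was 0.49 (edgeR adjusted p 0.153). Its relative Ildr2 had 23 and 16 against 54 and 60 counts (1.5, SE 0.42, adjusted p 0.144), and the polarity gene Pard6b 196 and 195 against 340 and 272 counts (0.62, SE 0.21, adjusted p 0.208). The related Pard6a (-0.30, edgeR adjusted p 0.335) and Pard6g (-0.53, adjusted p 0.348), named after their values were seen, were lower. At an unadjusted p under 0.05 the list had 4 higher and 3 lower genes of 30, against 14.1% of all genes tested in either direction. Values on both sides of 0 were thus present within the list, and its median with the GC offset was 0.012.

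In the list of adherens junction, ectoplasmic specialization and desmosome genes, 21 of 22 were tested and 0 were called (12 positive, 9 negative, median 0.05). Ctnna1 (alpha-catenin) had 845 and 1188 counts (control) against 1390 and 1483 (vKO), a difference of 0.50 ± 0.13 (SE) on the log2 scale with an adjusted p of 0.134 by edgeR, and it was called in 3 of 13 alternative fits. Itga6, an integrin subunit, had 10.6 ± 0.166 against 15.7 ± 1.38 CPM (0.57, adjusted p 0.164 by edgeR). Espn (espin, an actin-bundling protein of the ectoplasmic specialization) had 127 and 84.9 CPM in control. It had 148 and 153 CPM in vKO (0.51, adjusted p 0.215 by edgeR). The Espn value was 0.29 with the GC offset, 0.25 without control replicate 2 and 0.82 (adjusted p 3.14e-07 by edgeR) without control replicate 1.

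Of 19 other connexins, 9 were tested and 0 were called (4 positive, 5 negative, median -0.05). Gja6 had 9.87 ± 0.525 against 7.32 ± 1.12 CPM (log2 fold change -0.43, adjusted p 0.342 by edgeR), and Gjb2 stayed under 0.5 CPM in every library.

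Of 17 regulators of the barrier, 15 were tested and 1 was called, with 12 values positive and a median of 0.22. Wt1, Sox9, Gata4, Fshr and Rhox5 are also on the list of Sertoli markers. Dmrt1 and Etv5 are also on that of spermatogonial genes, so the tallies of these lists share genes. The called gene was Wt1, a transcription factor that maintains Sertoli cell identity, at 31.3 and 32.8 CPM (control) against 54.2 and 50.7 CPM (vKO). Wt1 rose by 0.71 ± 0.13 (SE) on the log2 scale with an adjusted p of 0.0418 by edgeR, and it lost the call without robust estimation (0.0501), without vKO replicate 1 (0.338) and without vKO replicate 2 (0.0824). Rhox5, an androgen-responsive homeobox gene of Sertoli cells, had 13.2 ± 0.339 against 18.5 ± 0.286 CPM (0.48, adjusted p 0.196), and Sox8 13.2 ± 0.931 against 18.5 ± 0.924 CPM (0.49, adjusted p 0.197).

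**Figure D4:**
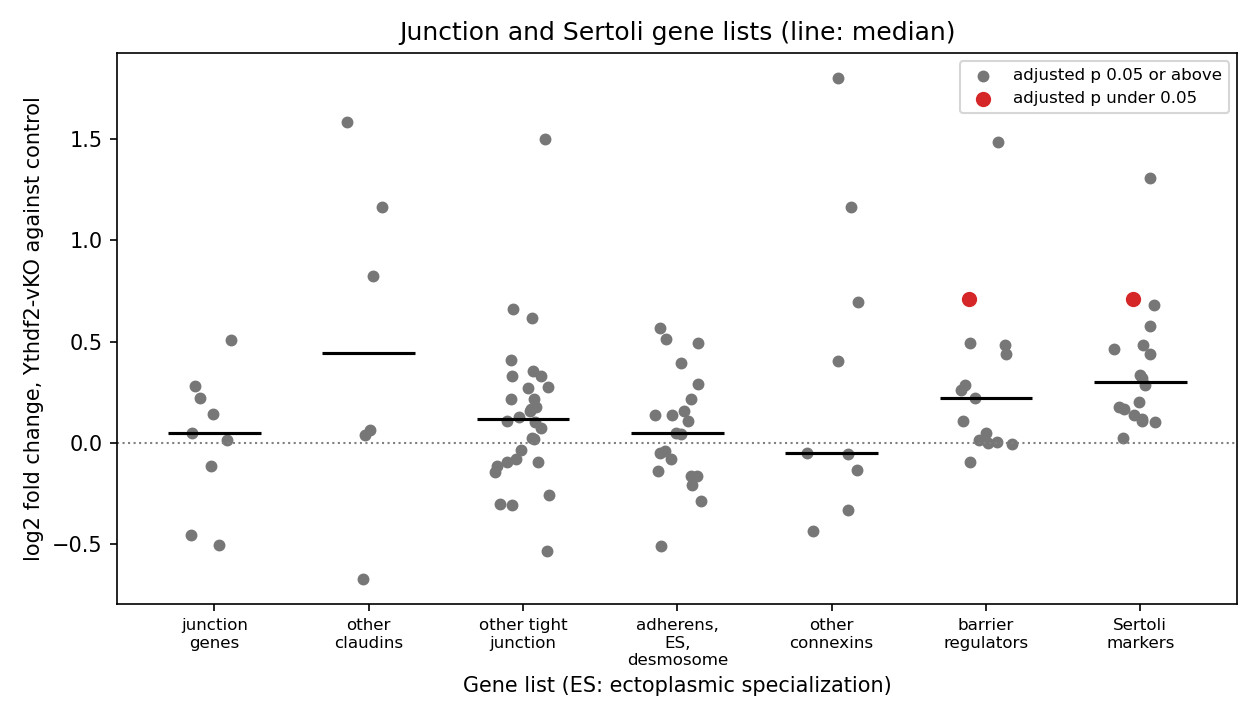
Log2 fold change of each tested gene of the 9 junction genes, the 5 wider junction lists and the Sertoli markers (points), with the median of each list (line) and genes under an adjusted p of 0.05 in red. Wt1 is the 1 red gene and appears in 2 of the lists, and the Sertoli markers are the list with no point below 0.

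The genes whose deviations over the 4 libraries lay nearest to those of 3 of the junction genes were taken from 177 candidates of the fixed lists. For Cldn11 the nearest was Rhox5, at a Euclidean distance of 0.0312 in log2 units, followed by Ctnna1 (0.106) and Itga6 (0.107). For Gja1 they were Inha (0.0944), Hsd3b6 (0.109) and Nectin1 (0.13), and for Cldn5 they were Cyp17a1 (0.107), Magi1 (0.163) and Amot (0.2). Over only 4 libraries, these are descriptions of likeness.

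Since YTHDF2 reads m6A, the letters GGACT, a preferred sequence of the m6A methyltransferase, were counted on the sense strand of the longest transcript of each gene. The 1870 nt Cldn11 transcript held 0. Cgn held 11 (2.19 per kb), Tjp1 held 9 (1.28 per kb), Gja1 held 6 (1.54 per kb) and Ocln held 2 (0.494 per kb). Marveld3 held 3 (1.23 per kb), Cldn5 held 2 (1.41 per kb), Marveld2 held 2 (0.643 per kb) and Cldn3 held 1 (0.794 per kb). The median over all genes tested was 1.02 per kb, and 85.9% of them held at least 1. Methylation was not measured in these libraries, and the count of letters does not say whether a transcript carried the mark.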

How the data were processed

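Testis RNA of 4 libraries (control and Ythdf2-vKO, n = 2 each) was analysed from 1 deposited table. It holds raw read counts per gene, per the file headers. HISAT2 2.1.0 and HTSeq 0.6.1p1 appear in the submitters' processing notes, while the strand setting, genome build and annotation are not given in the sources used here. The authors also deposited a mean normalized signal, log2 fold changes and their standard errors, a Wald score (fold change over its error) and p-values with adjusted p-values, under DESeq2 column names per the file headers. The table had no gene under 10 counts in all.

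The counts were fitted across the whole table with edgeR 4.0.16 (limma 3.58.1, R 4.3.3): filterByExpr, TMM scaling, a robust quasi-likelihood fit of genotype and a two-sided F test, adjusted by Benjamini-Hochberg over 21132 genes. A call is an adjusted p under 0.05. The SE is the absolute log2 fold change over the square root of F, and intervals are 95% from the moderated t distribution. The code was tested on simulated data. CPM are TMM-scaled, lengths, GC and coordinates come from GENCODE M21 (GRCm38), and upstream sequences from RefSeq (GRCm38.p6). Libraries of a group differed by more than sampling noise (chi-square per degree of freedom 17.8 and 7.31), so none were merged; nothing states that they are separate animals, and p-values measure only the spread between these libraries.

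All 9 junction genes and Ythdf2 are named, and from each of 5 wider lists the called genes and the 3 of smallest unadjusted p. Marker lists add called genes and the 2 most abundant Sertoli and endothelial markers. The nearest genes by likeness are named besides. A gene that this rule would name is not reported here. The members and lists were chosen with earlier results of these data known. Alternatives were DESeq2 1.42.0 size factors and Wald test, library totals, other filters, no robust estimation, a GC offset, a replicate block, a stricter threshold and leaving out each library.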

Additional observations from a re-analysis of the deposited data

How the results depend on the processing

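Of 117 alternative values of the log2 fold changes of the 9 junction genes, 110 kept their direction, 7 reversed and 6, all of Cldn11, passed the threshold. Reversals were found for Cldn5 with the GC offset (-0.014) and when leaving out single libraries, where Tjp1 ran from -0.11 to 0.22, Marveld2 from -0.45 to 0.34, Marveld3 from -0.070 to 0.33 and Gja1 from -0.047 to 0.076. The count of called junction genes, 0 in the reported fit, was 1 with library totals alone, 1 with the DESeq2 Wald test, 1 under the replicate block, 1 when that block was joined to a GC offset, and 0 to 1 when leaving out each library. Both groups number their libraries 1 and 2, but the labels do not say what a number marks, and deviations of equal-numbered libraries had a correlation of 0.139 with 2 pairs at hand, so the pairing was not used. Genes called higher and lower over the whole table were 59 and 24 as reported. They were 181 and 37 with library totals alone, 137 and 80 with the DESeq2 Wald test (the values of the authors' deposited table), 91 and 68 with the GC offset, 627 and 390 under the replicate block, 353 and 383 for that block joined to a GC offset, and 8 and 2 at an adjusted p under 0.01, where fewer pass by construction. Without robust estimation 15 were lower. Leaving out each library gave 30 to 1048 higher and 5 to 523 lower, with the remaining single library assumed to vary like the other group. Higher genes were 71.1% of the calls as reported, 83.0% with library totals alone, 57.2% with the GC offset, 61.7% with the replicate block, 48.0% with both and 51.4% without control replicate 2. Over total exon length the levels were 0.686 for Marveld3, 10.2 for Cgn and 4.12 CPM per kb for Gja1. Against the median of the Sertoli markers in place of their mean the differences were 0.36 for Cldn11, 0.091 for Cldn5, 0.14 for Cgn, -0.018 for Marveld3 and -0.13 for Gja1. Other than by construction, the cause was not tested. Marveld2, Marveld3 and Cldn5 had the fewest counts, 24 to 72 per library.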

Other observations

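Markers of the other cell types of the testis are given as counts, all from the edgeR fit and with 0 called in each of the lists named here. Positive values made up 7 of 8 Leydig cell genes (median log2 fold change 0.38), 11 of 12 spermatogonial genes (0.25), 4 of 4 erythrocyte genes (0.76), 8 of 9 macrophage genes (0.09), 3 of 8 peritubular myoid genes (-0.05) and 1 of 2 epididymal genes (0.12). They made up 1 of 16 spermatocyte genes (-0.22), 5 of 11 round spermatid genes (-0.02) and 1 of 13 elongating spermatid genes (-0.25). With the GC offset the medians were 0.15 for spermatogonial and -0.11 for spermatocyte genes. Leaving out control replicate 2 put the medians at 0.98 for macrophages and 0.39 for myoid cells. The part of these differences in the values of the junction genes was not tested.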
